A study of Homo sapiens with 12 samples.

Results

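The snoRNA host noncoding genes SNHG1, SNHG3, SNHG5, SNHG6, SNHG7, SNHG8, SNHG12, SNHG15, SNHG16 and GAS5 were followed in HEL cells, an established human erythroleukemia line. They were selected by name, with earlier results of these data known, and are 10 of 26481 genes with a complete count. The 12 RNA-seq libraries came from barcoded HEL cells that shared about 30 days of culture after a 72 h drug exposure. NT cells had been kept with the vehicle DMSO (n = 2), Doxo relapses had regrown after 1.8 µM doxorubicin (n = 3), and Doxo+Cyta relapses after the same doxorubicin dose with 6 µM cytarabine (n = 3). Doxo+Cyta+DAC relapses had also received 0.1 µM decitabine (n = 4), a nucleoside analogue that inhibits DNA methyltransferases. All groups derive from 1 cell line, and each relapse is the regrown progeny of the cells that survived.

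Small nucleolar RNAs (snoRNAs) guide chemical modification and cleavage of ribosomal RNA in the nucleolus. Box C/D snoRNAs direct ribose methylation and box H/ACA snoRNAs direct pseudouridylation. Most human snoRNAs are cut out of the introns of a host transcript, so that 1 primary transcript yields both a spliced host RNA and the snoRNAs. The spliced RNA of the noncoding hosts is commonly degraded by nonsense-mediated decay, and many hosts, GAS5 among them, start with the pyrimidine-rich 5′ TOP sequence that ribosomal protein messages also carry. Growth signals through mTOR and MYC act on both classes of gene. Ribosome production was therefore read beside the hosts through the messages for ribosomal proteins, RNA polymerase I, snoRNP proteins and pre-rRNA processing factors.

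Total counts per library lay between 12763582 and 19106235. All 12 HEL markers passed the filter on low counts, and their summed level (CPM, counts scaled to library totals and by the TMM method) was 8448 to 9705 in NT, 10593 to 11689 in Doxo, 10792 to 11535 in Doxo+Cyta and 7378 to 10425 in Doxo+Cyta+DAC. With Doxo+Cyta+DAC set against Doxo+Cyta, 9 of the 12 fell and 1 rose. The part of this shift in the results below was not tested. Of 12 markers of other cells, 4 passed it and their list summed to 27.5 to 110 CPM, lowest in the Doxo+Cyta+DAC group (27.5 to 52.6). Within groups, 2 libraries stood apart. Doxo replicate 4 differed from its group mates by a root-mean-square log2 difference of 0.52 and 0.53, against 0.30 between the other two, and Doxo+Cyta replicate 20 by 0.57 and 0.58, against 0.36.

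Per kilobase of exon, GAS5 was the highest of the 10 hosts, with a mean of 814 CPM per kb over the 12 libraries (range 480 to 1236). SNHG5 followed at 763 (620 to 1112), and the ranges of these 2 hosts overlapped. SNHG6 stood at 369 (268 to 501), apart from both neighbours in this order. SNHG1 followed at 160 (117 to 187), and its range met that of SNHG8 (78.3 to 150). SNHG8, SNHG15, SNHG12 and SNHG3 had means of 103, 86.3, 69.7 and 65.3 CPM per kb with overlapping ranges. SNHG16 (43.6) and SNHG7 (20.1) were lowest. This order has a limit, as reads that cross an exon junction could not be aligned whole. The share of exon bases in exons of 100 bases, the read length, or more differed between hosts. It was 27.7% in GAS5, 36.5% in SNHG5 and 62.1% in SNHG1, against 100% in SNHG7. Bases shared with another gene, 119 of 472 in SNHG6 and 251 of 2346 in SNHG3, were not counted either. What this did to the order was not tested. By mean CPM, GAS5 lay above 98.3% of all tested genes and SNHG12, the lowest of the 10 by this measure of rank, above 69.3%. The summed level of the 10 hosts was 1399 and 1603 CPM in NT, 1667 to 1926 in Doxo, 1761 to 2354 in Doxo+Cyta and 1552 to 1839 in Doxo+Cyta+DAC. The sum overlapped between the decitabine group and each other group, while its makeup did not. GAS5 supplied 31.5% to 35.4% of the host counts in the 8 libraries without decitabine and 19.5% to 21% in the 4 with it. SNHG3, SNHG12 and SNHG16 together supplied 12.2% to 16.7% in the former and 26.5% to 29.2% in the latter.

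The genomic DNA around the annotated first base of each host was read from GRCh38, with 20 bases before that base and 40 from it onward. The hosts shown are those whose levels changed most, with SNHG5 added as an abundant host that did not pass the test in any comparison. Capitals mark the longest run of C or T, of at least 5 bases, that begins within 5 bases of the annotated start. A 5′ TOP message begins with such letters at its first base, a stricter condition than this. In SNHG3, SNHG16 and SNHG1 (not shown) the annotated first base is G and the run begins after it.
GAS5 (chr1:173867948-173868007, minus strand): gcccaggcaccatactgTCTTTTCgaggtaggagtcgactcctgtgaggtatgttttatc
SNHG8 (chr4:118278742-118278801, plus strand): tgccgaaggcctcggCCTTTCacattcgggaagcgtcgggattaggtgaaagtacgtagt
SNHG5 (chr6:85678694-85678753, minus strand): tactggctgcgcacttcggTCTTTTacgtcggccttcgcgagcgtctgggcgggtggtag
SNHG12 (chr1:28581815-28581874, minus strand): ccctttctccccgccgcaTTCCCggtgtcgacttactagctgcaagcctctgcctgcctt
SNHG16 (chr17:76557744-76557803, plus strand): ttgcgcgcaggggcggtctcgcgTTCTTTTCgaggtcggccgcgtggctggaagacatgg
SNHG3 (chr1:28505923-28505982, plus strand): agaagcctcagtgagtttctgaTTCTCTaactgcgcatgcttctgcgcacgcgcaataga

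Such a run was present in 9 of the 10 hosts, the exception being SNHG15, and in 21.6% of the 14118 tested genes with a start sequence. The share was 46.2% of 78 ribosomal protein genes and 18.9% of 74 pre-rRNA processing genes. The letters CACGTG, the E-box that MYC and its partners can bind and which reads the same on both strands, occurred from 250 bases before to 50 after the start in GAS5 and SNHG7 only, 2 of 10 hosts, against 9.21% of tested genes. A letter match describes the sequence and is no site of binding by itself. The definition of the run was chosen after the sequences had been seen.

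To see whether relapse after chemotherapy alone moved the hosts, Doxo and Doxo+Cyta were each compared with NT. SNHG12, host of H/ACA and C/D snoRNAs, was the 1 host that passed the test. Its level was 28 and 24.6 CPM in NT, 32.5, 48.9 and 52.2 in Doxo replicates 4, 5 and 6, and 57.8, 49.1 and 53 in Doxo+Cyta replicates 19, 20 and 22. Every relapse library lay above both NT libraries. SNHG12 rose by a log2 fold change of 0.76 ± 0.20 (SE) in Doxo relapses (edgeR quasi-likelihood test with Benjamini-Hochberg adjustment, adjusted p = 0.029). The value for Doxo+Cyta relapses was 1.02 ± 0.20 (adjusted p = 0.0331). These calls were fragile. In Doxo the adjusted p went above 0.05 when either NT library or Doxo replicate 5 or 6 was left out (up to 0.228), and in Doxo+Cyta when either NT library or Doxo+Cyta replicate 19 or 22 was left out (up to 0.44).

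The 1 of 10 hosts called higher stood beside 6.06% of all 14164 tested genes called higher when Doxo was set against NT (10.7% in either direction). For Doxo+Cyta against NT the share was 0.911% (1.46% in either direction). The host levels nonetheless leaned upward. In Doxo 7 of the 10 hosts had every library above NT, against 24.6% of tested genes, and in Doxo+Cyta likewise 7, against 21.4%. The median log2 fold change of the hosts was 0.31 in Doxo and 0.42 in Doxo+Cyta, with that of all tested genes at 0.01 in both, and the ribosomal protein messages had medians of 0.24 and 0.36. SNHG7 came next to the threshold, with 0.51 ± 0.17 for Doxo (adjusted p = 0.075) and 0.73 ± 0.17 for Doxo+Cyta (adjusted p = 0.0528). SNHG15 was the 1 host with every Doxo library below NT (24.5% of tested genes), at 72.1, 52.8 and 53.4 CPM against 81 and 74.1 (log2 fold change -0.38 ± 0.20, adjusted p = 0.223). Without Doxo replicate 4, in which 7 hosts had the lowest level of their group, 3 hosts passed the test relative to NT, SNHG1 (0.45, adjusted p = 0.017) and SNHG7 (0.60, adjusted p = 0.0232) in addition to SNHG12.

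The hosts did not distinguish Doxo+Cyta from Doxo relapses by the test, which can miss changes of the size seen here. None of the 10 passed the test by edgeR, with 3.4% of tested genes called, and the log2 fold changes ran from -0.28 for SNHG16 to 0.47 for SNHG15. Doxo+Cyta replicate 20 held the highest level of its group for 8 of the 10 hosts. SNHG5, for example, stood at 564 CPM there against 374 and 376 in replicates 19 and 22, and SNHG15 at 111 against 68.5 and 67.4. With that library left out, SNHG16 was lower in Doxo+Cyta than in Doxo (log2 fold change -0.60, adjusted p = 0.0348).

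**Figure D1:**
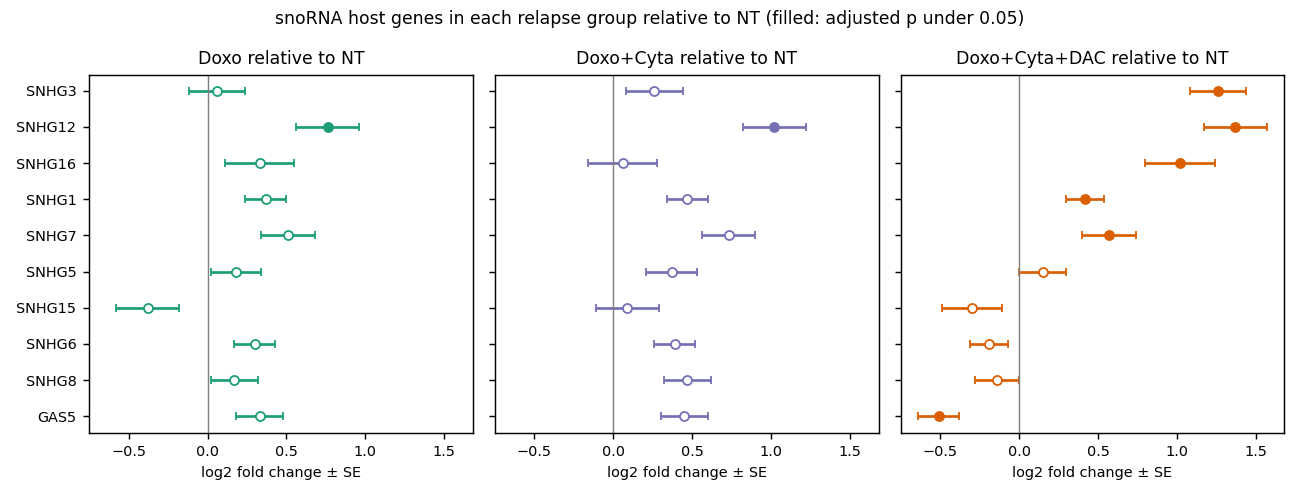
log2 fold change with its standard error (horizontal axes) of each host in the 3 relapse groups relative to NT; filled points passed the test at an adjusted p under 0.05. SNHG12 alone is filled in the Doxo and Doxo+Cyta panels, while in the Doxo+Cyta+DAC panel 5 hosts lie to the right and GAS5 to the left of 0.

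The largest changes were found after decitabine, and they ran in opposite directions. SNHG3, SNHG12 and SNHG16 were at their highest in Doxo+Cyta+DAC relapses, while GAS5, SNHG6 and SNHG8 were at their lowest. Relative to NT 5 hosts rose and 1 fell, where 24.9% of tested genes rose and 23.7% fell (48.7% together). Relative to Doxo+Cyta 2 rose and 3 fell, where 29.8% of genes rose and 30.5% fell (60.3%). Relative to Doxo 3 rose and 3 fell, where 29.1% rose and 30.4% fell (59.5%). As many genes of the whole table were called, the count of hosts called is near the background and the direction of each host is what is described here. In bulk RNA, less RNA per cell and fewer cells that make it cannot be told apart.

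SNHG3, which carries the H/ACA snoRNAs SNORA73A and SNORA73B, showed the clearest rise. It stood at 107 and 94 CPM in NT, 123, 95.1 and 96.2 in Doxo, 110, 151 and 101 in Doxo+Cyta, and 286, 227, 225 and 223 in Doxo+Cyta+DAC replicates 30 to 33. All 4 decitabine libraries lay above all 8 others. The log2 fold change was 0.99 ± 0.15 relative to Doxo+Cyta (adjusted p = 7.09e-05), 1.19 ± 0.15 relative to Doxo (adjusted p = 1.82e-05) and 1.26 ± 0.18 relative to NT (adjusted p = 8.36e-05). SNHG3 shares its first base and 251 exon bases with RCC1, the gene for the nucleotide exchange factor of Ran, and fragments in the shared bases were assigned to neither gene. All of SNHG3, with SNORA73A and SNORA73B, lies within the span of RCC1 on the same strand. Unspliced RCC1 RNA could therefore be counted for SNHG3 or its snoRNAs, and its part in their rise was not tested. RCC1 rose as well, by 1.38 ± 0.12 relative to Doxo+Cyta (adjusted p = 7.9e-07).

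SNHG16, the host of the C/D snoRNAs SNORD1A, SNORD1B and SNORD1C, was at 82.3 and 73.9 CPM in NT, 122, 86.9 and 86.9 in Doxo, 68.7, 115 and 61 in Doxo+Cyta, and 168, 157, 151 and 155 in Doxo+Cyta+DAC. The decitabine libraries again did not overlap with any other group. The log2 fold change was 0.96 ± 0.19 relative to Doxo+Cyta (adjusted p = 0.000606), and it was 1.28 without Doxo+Cyta replicate 20. SNHG12 reached 83, 58.2, 70.1 and 60.8 CPM in Doxo+Cyta+DAC, above every library of the other groups. It rose by 1.37 ± 0.20 relative to NT (adjusted p = 9.65e-05) and by 0.61 ± 0.16 relative to Doxo (adjusted p = 0.0057). Relative to Doxo+Cyta the difference of 0.35 ± 0.16 did not pass the test (adjusted p = 0.0771).

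GAS5, the growth arrest transcript that hosts 10 annotated C/D snoRNAs, went the other way. It stood at 521 and 452 CPM in NT, 526, 636 and 671 in Doxo, 624, 781 and 596 in Doxo+Cyta, and 379, 333, 303 and 348 in Doxo+Cyta+DAC. The decitabine libraries were below every library of the other groups. GAS5 fell by 0.97 ± 0.12 on the log2 scale relative to Doxo+Cyta (adjusted p = 1.2e-05), by 0.84 ± 0.12 relative to Doxo (adjusted p = 4.5e-05) and by 0.51 ± 0.13 relative to NT (adjusted p = 0.00628). The last call was lost when NT replicate 1 was left out (adjusted p = 0.0963). Only 27.7% of the 632 exon bases of GAS5 lie in an exon of 100 bases, the read length, or more, which is 1 exon of 12. Reads that cross an exon junction could not be aligned whole, and what this did to the GAS5 level was not tested.

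SNHG6, host of SNORD87, stood at 167 and 151 CPM in NT, 171, 199 and 218 in Doxo, 196, 237 and 191 in Doxo+Cyta, and 145, 144, 126 and 142 in Doxo+Cyta+DAC. It fell by 0.58 ± 0.11 relative to Doxo+Cyta (adjusted p = 0.000443) and by 0.49 ± 0.11 relative to Doxo (adjusted p = 0.00156), with no overlap of the libraries. Relative to NT the difference was -0.19 ± 0.12 (adjusted p = 0.221). SNHG8, host of SNORA24, was at 63.8 and 52.7 CPM in NT, 56.4, 67.3 and 73.2 in Doxo, 78.1, 93 and 71.7 in Doxo+Cyta, and 53.2, 58.4, 52.2 and 48.4 in Doxo+Cyta+DAC. The decitabine libraries were below all Doxo+Cyta libraries but overlapped with NT and Doxo. SNHG8 fell by 0.61 ± 0.13 relative to Doxo+Cyta (adjusted p = 0.000845), while the call relative to Doxo (-0.31 ± 0.13, adjusted p = 0.0494) sat at the threshold and was lost under 9 of 15 alternatives.

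The other 4 hosts differed less between the relapses. SNHG1, host of 8 C/D snoRNAs, was at 148 and 131 CPM in NT and 203, 184, 180 and 178 in Doxo+Cyta+DAC, without overlap, a rise of 0.42 ± 0.12 (adjusted p = 0.0121). SNHG7 was at 43.1 and 31.9 CPM in NT and 63.1, 49.1, 56 and 55.1 in Doxo+Cyta+DAC, a rise of 0.57 ± 0.17 (adjusted p = 0.0112). Both calls were lost without NT replicate 2, and relative to Doxo+Cyta neither passed the test (SNHG1 -0.05 ± 0.11, SNHG7 -0.16 ± 0.14). SNHG5, host of SNORD50A and SNORD50B, was at 362 and 314 CPM in NT and 392, 394, 331 and 382 in Doxo+Cyta+DAC, and these libraries overlapped (0.15 ± 0.15, adjusted p = 0.456). SNHG15 was at 66, 64.3, 57.5 and 63.6 CPM in Doxo+Cyta+DAC, below every NT and Doxo+Cyta library, yet did not pass the test relative to Doxo+Cyta (-0.39 ± 0.17, adjusted p = 0.0578) or NT (-0.30 ± 0.19, adjusted p = 0.2). Without Doxo+Cyta replicate 20 the SNHG15 difference from Doxo+Cyta was -0.11 (adjusted p = 0.454).

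The mean of the 10 centred profiles described few of the hosts. SNHG5 lay nearest to it, with a root-mean-square difference of 0.11 in log2 CPM over the 12 libraries, and SNHG3 farthest, at 0.51. The 5 genes outside the list with the nearest profiles were UQCRB, WAS, EPN1, ATP5C1 and PSMA6, at 0.066 to 0.073.

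To place the hosts beside ribosome production, the same fit was read for lists of genes, with Doxo+Cyta+DAC set against Doxo+Cyta. In this comparison 29.8% of all tested genes rose and 30.5% fell. The messages that build and modify the ribosome rose, whereas the messages for its proteins fell, and hosts were found on both sides. Of 75 pre-rRNA processing and assembly genes 69 rose and 3 fell, with a median log2 fold change of 1.34 where the median of all tested genes was 0.00. UTP20, of the small subunit processome, rose by 3.04 ± 0.24 and MRTO4, a large subunit assembly factor, by 2.52 ± 0.31, while GLTSCR2 fell by 0.97 ± 0.12 and NOB1 by 0.33 ± 0.09. Of 15 genes for RNA polymerase I and its factors 9 rose and 3 fell (median 0.80), led by CD3EAP (2.59 ± 0.24) and POLR1A (2.46 ± 0.19), with TAF1D (-0.77) and ZNRD1 (-0.61) the lowest.

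Messages for proteins that bind snoRNAs rose. Of 17 snoRNP proteins and assembly factors 13 rose and 2 fell (median 0.85). NOP56 and NOP58, core proteins of the C/D particle, rose by 2.00 ± 0.25 and 1.30 ± 0.11, and FBL, its methyltransferase, did not pass the test at 0.11 ± 0.12 (adjusted p = 0.436). In the H/ACA particle, the pseudouridine synthase DKC1 rose by 0.89 ± 0.14, GAR1 by 1.54 ± 0.13, NHP2 by 0.85 ± 0.15 and NOP10 by 0.72 ± 0.16. The assembly ATPase RUVBL1 rose by 1.82 ± 0.27, and the assembly factors PIH1D1 and ZNHIT3 fell by 0.63 ± 0.12 and 0.42 ± 0.11.

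Of 79 ribosomal protein messages 64 fell and 1 rose, with a median log2 fold change of -0.48. RPS2 fell by 0.82 ± 0.10 and RPS27 by 0.75 ± 0.13. The 1 that rose, RPS10, overlaps the read-through gene RPS10-NUDT3 in the annotation and was counted at 10.1 CPM. Of 16 other 5′ TOP messages 10 fell and 2 rose (median -0.37), with EEF1G at -0.73 ± 0.12 and EIF4B at -0.55 ± 0.13, against NPM1 at 0.53 ± 0.09 and HNRNPA1 at 0.26 ± 0.08. The values of GAS5 (-0.97), SNHG8 (-0.61) and SNHG6 (-0.58) lay within or below the range of the ribosomal protein messages that fell, and those of SNHG3 (0.99) and SNHG16 (0.96) near the middle of the snoRNP and polymerase lists. Relative to NT 3 of 79 ribosomal protein messages were lower and 1 higher, with a median of -0.13, while 67 of 75 processing genes were higher. In that comparison 24.9% of all tested genes were higher and 23.7% lower.

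Other snoRNA hosts went in both directions, where 29.8% of all tested genes rose and 30.5% fell. Of 20 protein-coding hosts outside the list of ribosomal protein genes 11 rose and 4 fell (median 0.41). They ran from TAF1D and GNB2L1 (-0.77 and -0.54) to WDR43 (2.12) and PPAN, the highest. Of 14 other noncoding hosts tested, 7 rose and 4 fell (median 0.26). DANCR rose by 1.14 ± 0.13, SNHG4 by 1.35 ± 0.17, SNHG10 by 1.22 ± 0.19, SNHG25 by 1.31 ± 0.41 and SNHG9 by 0.97 ± 0.28. EPB41L4A-AS1 fell by 1.37 ± 0.13, ZFAS1 by 1.22 ± 0.12, C6orf48 by 0.87 ± 0.11 and LRRC75A-AS1 by 0.54 ± 0.12. Of 17 nonsense-mediated decay factors 8 rose and 2 fell, among them UPF1, the central helicase of the pathway, at 0.88 ± 0.10, and of 13 tested messages known as its targets 4 rose and 4 fell. In the growth control list 7 of 19 genes rose and 6 fell (median -0.04), close to the shares of all tested genes. MTOR (1.75 ± 0.15) and RPTOR (1.61) were the highest. MXI1, a MYC antagonist, fell by 2.53 ± 0.22, and DEPTOR (-2.09) was next lowest. MYC, named after its value was seen, rose by 1.42 ± 0.12.

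Genes that overlap a host or start within 10 kb of it did not move uniformly with it. ZBTB37, which starts 368 bases from GAS5 on the other strand, fell by 1.04 ± 0.28 relative to Doxo+Cyta. SLC3A2 starts 124 bases from SNHG1 and was at 0.11 ± 0.14 (adjusted p = 0.525). MYO1G near SNHG15 fell by 1.64 ± 0.11, and FAM69B, which shares 125 exon bases with SNHG7 on the opposite strand, fell by 1.19 ± 0.22. Counting ignored strand, so the SNHG7 and FAM69B fragments in the shared bases went to neither. TRNAU1AP shares 8 bases with SNHG12 and was at -0.09 ± 0.14, and MCMDC2, which shares 119 with SNHG6, was counted at 2 to 21 fragments per library (0.89 ± 0.52, adjusted p = 0.155). GAS5-AS1 held 1 to 9 fragments and was not tested.

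The count table also holds the snoRNA genes themselves, and their counts gave a second readout of the same loci. A total of 34 annotated snoRNAs lie inside the 10 hosts. A fragment was counted for a snoRNA only if it touched no host exon, so these counts and the host counts come from different fragments. They may stem from a snoRNA, an excised intron or unspliced host RNA, which cannot be told apart. The abundance of mature snoRNAs was therefore not measured. Of the 34 snoRNAs 27 passed the filter on low counts, 19 of them also in the 8 libraries without decitabine alone. Tests of single snoRNAs are given for these 19 only, because the others entered through the group in which they were high. The summed counts and ratios below include all 34, and so also snoRNAs left out of these tests.

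In Doxo+Cyta+DAC relapses fragments on these snoRNA genes were more frequent relative to host exon fragments in 7 of the 10 hosts. The exceptions were SNHG7, SNHG15 and SNHG16. Introns as a whole were not counted. Over all 34 snoRNAs, summed counts were 612 and 467 in NT, 466, 332 and 386 in Doxo, 564, 398 and 435 in Doxo+Cyta, and 1611, 1309, 1659 and 941 in Doxo+Cyta+DAC. The decitabine libraries did not overlap with any other. Per 1000 host exon fragments this was 52.2 ± 4.89 (SD, n = 4) against 15.1 ± 3.8 in Doxo+Cyta (n = 3), a ratio of 3.46 (exact permutation test, two-sided, p = 0.0286, the smallest that 4 against 3 libraries allow). It was 14.3 ± 4.61 in Doxo (ratio 3.65) and 19.7 ± 0.171 in NT (ratio 2.64, exact permutation p = 0.0667, the smallest that 4 against 2 allow). This ratio was chosen after the counts had been seen.

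GAS5 held the most snoRNA-gene fragments of the hosts whose exon count fell. Its 10 snoRNAs together held 196 and 133 fragments in NT, 137, 96 and 105 in Doxo, 167, 109 and 128 in Doxo+Cyta, and 572, 482, 606 and 346 in Doxo+Cyta+DAC. While the exon count fell, the 5 snoRNAs of GAS5 that passed the filter without decitabine rose relative to Doxo+Cyta. SNORD47 rose by 2.49 ± 0.28 (adjusted p = 4.88e-06) and SNORD80 2.84-fold (adjusted p = 9.26e-06). SNORD78 rose by 2.66, SNORD44 by 1.91 and SNORD76 by 1.40. SNORD74 held 3, 7 and 9 fragments in Doxo+Cyta and 35, 37, 45 and 21 in Doxo+Cyta+DAC. SNORD77, SNORD79 and SNORD81 likewise had every decitabine library above every other in CPM, and SNORD75 held at most 5 fragments in any library. Per 1000 exon fragments, the snoRNA genes of GAS5 gave 93.9 ± 11.2 in Doxo+Cyta+DAC (n = 4) and 13 ± 3.62 in Doxo+Cyta (n = 3), a ratio of 7.23 (exact permutation p = 0.0286, adjusted over 9 hosts 0.0367). This ratio was chosen after the counts had been seen. It includes snoRNAs that passed the filter only through the decitabine libraries, so its p-value is descriptive.

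Examples from 4 hosts and GAS5 are shown as DNA of the host strand in GRCh38, from the coordinates of the count table. SNORD47, SNORD80, SNORD28 and SNORA61 are among the 19 tested, and SNORD74, SNORD50B and SNORA24 are shown for their counts alone. In the box C/D snoRNAs capitals mark TGATG of box C where it occurs in the first 15 bases and the last CTGA, box D. In the H/ACA snoRNAs capitals mark the ACA near the 3′ end.
SNORD47 in GAS5 (chr1:173864369-173864445, minus strand): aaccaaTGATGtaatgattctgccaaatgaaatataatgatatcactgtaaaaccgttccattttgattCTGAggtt
SNORD80 in GAS5 (chr1:173864833-173864903, minus strand): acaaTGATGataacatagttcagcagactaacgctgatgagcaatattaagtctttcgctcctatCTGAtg
SNORD74 in GAS5 (chr1:173867674-173867745, minus strand): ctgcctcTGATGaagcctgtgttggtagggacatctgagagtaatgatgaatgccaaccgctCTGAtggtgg
SNORD28 in SNHG1 (chr11:62854621-62854695, minus strand): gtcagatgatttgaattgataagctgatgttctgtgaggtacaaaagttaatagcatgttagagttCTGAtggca
SNORD50B in SNHG5 (chr6:85677589-85677659, minus strand): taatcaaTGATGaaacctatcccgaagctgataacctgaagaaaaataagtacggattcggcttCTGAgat
SNORA24 in SNHG8 (chr4:118279190-118279320, plus strand): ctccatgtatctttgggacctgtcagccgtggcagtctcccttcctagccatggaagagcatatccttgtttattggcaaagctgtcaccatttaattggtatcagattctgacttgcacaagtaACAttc
SNORA61 in SNHG12 (chr1:28579764-28579893, minus strand): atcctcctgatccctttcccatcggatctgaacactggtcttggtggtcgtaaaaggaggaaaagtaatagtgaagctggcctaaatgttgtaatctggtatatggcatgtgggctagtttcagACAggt

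The other hosts whose exon count fell held fewer snoRNA-gene fragments. SNORD87 in SNHG6 held 13 and 10 fragments in NT, 6, 6 and 11 in Doxo, 13, 7 and 11 in Doxo+Cyta, and 53, 47, 39 and 31 in Doxo+Cyta+DAC. It rose by 2.06 ± 0.31 relative to Doxo+Cyta (adjusted p = 6.48e-05). SNORA24 in SNHG8 held 1 to 5 fragments in each library without decitabine and 10 to 13 in each with it.

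SNHG5 and SNHG1 did not pass the test between these groups by their exons. SNORD50B in SNHG5 held 1 to 6 fragments in the 8 libraries without decitabine and 37, 23, 44 and 39 in those with it, whereas SNORD50A held at most 2 in any library. In SNHG1 4 of 6 tested snoRNAs rose, from SNORD31 at 0.67 ± 0.21 to SNORD28 at 2.50 ± 0.45, and those that did not pass the test were SNORD22 (0.62 ± 0.27, adjusted p = 0.0632) and SNORD25 (0.58 ± 0.28, adjusted p = 0.0869). SNORD28 held 10, 3 and 12 fragments in Doxo+Cyta and 47, 44, 69 and 30 in Doxo+Cyta+DAC.

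In SNHG3 the exons and the snoRNA genes both rose, and both lie within the span of RCC1. SNORA73A and SNORA73B in SNHG3 rose by 2.82 ± 0.38 and 2.36 ± 0.33 while SNHG3 exons rose by 0.99. In SNHG12, whose exons did not pass the test here (0.35), SNORA61 held 47, 57 and 44 fragments in Doxo+Cyta and 207, 160, 205 and 116 in Doxo+Cyta+DAC (1.80 ± 0.25, adjusted p = 3.08e-05). SNORA16A rose by 1.95 ± 0.33 and SNORD99 by 1.01 ± 0.40, and SNORA44 was level at -0.02 ± 0.21 (adjusted p = 0.937). SNORD1A, SNORD1B and SNORD1C in SNHG16 held at most 8 fragments in any library and were not tested.

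SNHG15 was the exception. SNORA9, its 1 annotated snoRNA, held 68 and 47 fragments in NT, 32, 30 and 25 in Doxo, 46, 32 and 26 in Doxo+Cyta, and 18, 31, 25 and 24 in Doxo+Cyta+DAC. It fell by 0.98 ± 0.31 relative to NT (adjusted p = 0.0164) and did not pass the test relative to Doxo+Cyta (-0.46 ± 0.29, adjusted p = 0.185). SNORA43 and SNORA17 lie within an annotated exon of SNHG7 and therefore had 0 counts in every library.

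**Figure D2:**
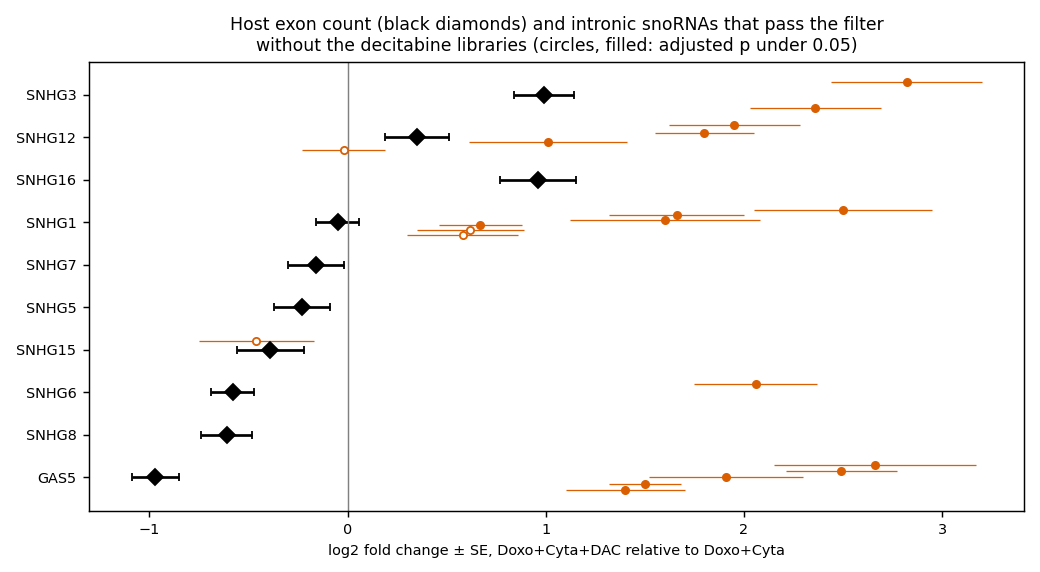
log2 fold change with its standard error of Doxo+Cyta+DAC over Doxo+Cyta (horizontal axis) of each host's exon count (black diamonds) and of those snoRNAs in its introns that passed the filter without the decitabine libraries (orange circles, filled at an adjusted p under 0.05). The 5 GAS5 snoRNAs lie right of 1 while the GAS5 diamond lies at -0.97, and SNORA9 in SNHG15 lies at -0.46 beside its host at -0.39.

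Of the 19 tested snoRNAs, 15 rose and 0 fell relative to Doxo+Cyta, beside 29.4% of the 13861 genes chosen in the same way that rose, and 20.2% of the 3682 such genes with a mean under 6 CPM outside the decitabine group. Relative to Doxo 17 rose and 0 fell (28.6% and 21.6% of the same genes rose), and relative to NT 16 rose and SNORA9 fell (24.5% and 16%). The NT count was 9 without NT replicate 1 and 10 without NT replicate 2. In Doxo and Doxo+Cyta relative to NT none of the 19 passed the test by edgeR. Over all 34, those left out of the tests included, 24 had every Doxo+Cyta+DAC library above every Doxo+Cyta library, against 16.5% of all genes of the table. The number was 25 against NT (19.8%) and 25 against Doxo (16.8%). These numbers include snoRNAs that passed the filter only through the decitabine libraries. The shares also cover genes with few or no counts, which can hardly stand apart between groups. Numbers and shares are therefore unlike and give no further support.

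SnoRNAs in other hosts were read in the same way, beside 29.4% of all genes that passed the same filter and rose. Of all tested genes 30.5% fell. Of 38 snoRNAs in ribosomal protein genes that passed the same filter 4 rose and 4 fell relative to Doxo+Cyta (median log2 fold change 0.06), while those in the 10 hosts had a median of 1.66. Of 39 in other genes 11 rose and 9 fell (median 0.23), and of 7 in the other noncoding hosts 2 rose and 0 fell (median 0.83). Summed over all snoRNAs of a class, the level in the 10 hosts was 74.5 to 98.6 CPM in Doxo+Cyta+DAC and 26.5 to 34.9 in Doxo+Cyta, without overlap. In the other noncoding hosts it was 18.9 to 24.9 and 11.5 to 15.8, also without overlap, and in ribosomal protein genes 57.3 to 70.5 and 45.3 to 70.9. Relative to the host's own log2 fold change, the snoRNA lay higher in 17 of 19 pairs in the 10 hosts (median difference 1.65), 5 of 7 in the other noncoding hosts (0.49) and 29 of 38 in ribosomal protein genes (0.62). Of 44 miRNA genes that passed the filter 2 rose and 17 fell (median -0.75), and the nuclear RNAs MALAT1 and NEAT1 fell by 0.92 ± 0.16 and 0.69 ± 0.12. The difference between these classes was not tested.

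By host, the ratio of snoRNA-gene to exon fragments in Doxo+Cyta+DAC over Doxo+Cyta was 7.23 for GAS5 and 6.12 for SNHG6. It was 2.92 for SNHG3, 2.25 for SNHG1 and 2.08 for SNHG12. Each of these had an exact permutation p of 0.0286 (adjusted 0.0367), the smallest that 4 against 3 libraries allow. The adjusted value also depends on SNHG5 and SNHG8, which were part of the adjustment. As the ratio was chosen after the counts had been seen, these p-values are descriptive and no independent support. For SNHG5 the ratio was 12 and for SNHG8 5.68. No p-value is given for these, as neither holds a snoRNA among the 19 tested. In SNHG16 it was 3.07 on 0 to 19 fragments per library (exact permutation p = 0.114) and in SNHG15 0.913 (exact permutation p = 0.743). The SNHG5 and SNHG8 ratios each rest on 2 to 5 fragments per Doxo+Cyta library. Those of GAS5 and SNHG1 rest in part on snoRNAs outside the 19. Over NT the ratio was 1.26 for SNHG12 (exact permutation p = 0.133) and 1.05 for SNHG16 (exact permutation p = 1).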

How the data were processed

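RNA was measured in 12 libraries of HEL cells. The authors prepared libraries from total RNA with the TruSeq RNA kit, sequenced them as paired 100-base reads, aligned them to GRCh38 with Bowtie2 2.2.8, which does not align across introns, and counted fragments per gene with featureCounts 1.6.0 without regard to strand. The deposited values are these counts, not normalized, in which fragments with several alignments or overlapping several genes were left out, and a length column that holds the exon bases of each gene. The series design mentions 3 NT replicates, of which 2 are labelled and were used.

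Of 26485 genes, 4 with a missing count were left out. Counts were filtered with filterByExpr, which kept 14164 genes, scaled by TMM and fitted with edgeR 4.0.16 (R 4.3.3, quasi-likelihood test, all 12 libraries in 1 fit). Tests were two-sided and p-values adjusted by Benjamini-Hochberg over all tested genes of each of 6 comparisons, with calls at an adjusted p under 0.05. The comparisons share groups and are not independent. Standard errors are those of the log2 fold change. The labels call the replicates biological, and p-values measure the spread between these libraries of 1 cell line. Low counts carry counting error. Ratios of snoRNA-gene to exon fragments were compared by exact permutation of libraries (difference of means) with adjustment over 9 hosts. The fit was tested on simulated data with 200 changed genes, for Doxo+Cyta+DAC relative to Doxo+Cyta. At log2 fold changes of 1.0 and -1.0, 47 and 48 of 50 genes were called in the right direction. At 0.5 and -0.5 these were 9 and 19 of 50, so in the simulation changes of that size were often missed. The changed genes were drawn from those with a mean above 200 counts, unlike most snoRNA genes. In the data 60.3% of tested genes were called in this comparison, far more than were changed in the simulation. The simulated share of missed genes therefore does not carry over to it. There were 5 false calls. Alternatives were DESeq2 1.42.0, other scalings and filters, fits of the groups compared only, each library left out and, chosen after seeing the data, scaling without the 100 genes with the most counts and libraries thinned to the smallest total.

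The 10 hosts and the gene lists were chosen with earlier results of these data known. Named were all hosts, the 2 highest and 2 lowest called genes of each list but the marker lists with Doxo+Cyta+DAC set against Doxo+Cyta, members of the snoRNP, noncoding host and decay lists, the 5 nearest profiles and the neighbouring genes. MYC, MALAT1 and NEAT1 were named after their values were seen, as were the comparisons of snoRNA counts with host counts. Sequences were read from GRCh38 with pysam 0.24.0. No sequence is shown for SNHG6.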

Additional observations from a re-analysis of the deposited data

Results flagged for a closer look

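Among the 4 Doxo+Cyta+DAC libraries, SNHG3 in replicate 30 was at 286 CPM while the other 3 libraries lay between 223 and 227. The gap to the nearest library was 0.940 of the whole range, above Dixon's critical value for 4 libraries. A gap above that critical value arises by chance in about 1 of 20 groups. In all, 20 groups were examined (levels of the 10 hosts and ratios of snoRNA-gene to exon fragments). The SNHG3 calls against NT, Doxo and Doxo+Cyta held without this library.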

How the results depend on the processing

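Across 60 host log2 fold changes and their alternatives (840 values), 794 kept their direction and their side of the threshold, 22 lost and 12 gained a call, and 12 changed sign. None of the sign changes touched a value that had passed the test. With only the groups compared in the fit, 0 hosts were called against NT for Doxo and 0 for Doxo+Cyta. Relative to NT in Doxo+Cyta, 2 hosts were called with no filter on low counts and 3 by DESeq2. Leaving out 1 library gave 4 to 6 hosts called for Doxo+Cyta+DAC and 0 to 3 for Doxo relative to NT, 0 to 1 for Doxo+Cyta relative to NT, 5 to 6 for Doxo+Cyta+DAC relative to Doxo+Cyta and to Doxo, and 0 to 1 for Doxo+Cyta relative to Doxo. For snoRNAs called higher in Doxo+Cyta+DAC it gave 9 to 17 relative to NT, 13 to 16 relative to Doxo+Cyta and 15 to 17 relative to Doxo, the lowest without either NT library. With at least 10 counts in every library, these were 6, 5 and 7, because most snoRNAs were then no longer tested. The sign changes were as follows. SNHG1 and SNHG7 in Doxo+Cyta+DAC relative to Doxo were at -0.05 without Doxo replicate 4 (highest 0.14 and 0.19 over the libraries left out), and SNHG5 ranged from -0.06 to 0.02, the latter without Doxo replicate 6 or Doxo+Cyta+DAC replicate 32. SNHG3 in Doxo relative to NT was at -0.03 without NT replicate 2 and -0.10 without Doxo replicate 4 (highest 0.16). SNHG8 in Doxo+Cyta+DAC relative to NT was at 0.01 without NT replicate 1 (lowest -0.27). Without Doxo+Cyta replicate 20, SNHG5 and SNHG6 in Doxo+Cyta relative to Doxo were at -0.03 and -0.01 (highest 0.31 and 0.18), and SNHG15 and SNHG16 in Doxo+Cyta relative to NT at -0.21 and -0.29 (highest 0.20 and 0.22). SNHG16 there was at -0.02 without NT replicate 2. The cause of these changes was not tested. Scalings moved the median of all genes by at most 0.09 (log2). No paired analysis was possible because the groups share no replicate numbers. With 2 NT libraries, comparisons with NT are the least certain.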
